A study of Mus musculus with 6 samples.

Results

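Described here are 9 genes of the 15443 gene symbols measured: the Siglec receptors Siglece, Siglec1, Siglecg, Cd33 and Cd22, the Sirp receptor Sirpa, the leukocyte immunoglobulin-like receptors Pirb and Lilrb4a, and Cd47, the ligand of SIRPα. They were taken by symbol from the table of normalized counts, and each of the 9 had a row. The cells were bone marrow of wild-type C57BL/6J mice, an inbred laboratory strain, grown for 3 days with FLT3LG, the cytokine that drives dendritic cell growth, at 50 ng/ml. The control group (Dev_DC_control, replicates 1, 2 and 4) received nothing more, and the midkine group (Dev_DC_rMDK, replicates 3, 4 and 5) had human recombinant MIDKINE, a heparin-binding growth factor, at 10 ng/ml over the same days. All 6 libraries share the FLT3LG and were made from the whole culture, and the labels give no age or sex and do not state whether replicates were separate mice. A p-value therefore covers the spread between these samples only, which may be technical.

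As background, most of these receptors carry immunoreceptor tyrosine-based inhibition motifs (ITIMs) in their tails. When a ligand binds and a Src family kinase phosphorylates the motif, the phosphatases SHP-1 and SHP-2 (Ptpn6 and Ptpn11) are recruited and dampen signals from activating receptors. Siglecs bind sialic acid on glycans, SIRPα binds CD47 and by that restrains the engulfment of cells, and PIR-B, the product of Pirb, binds MHC class I. Siglec1, the macrophage adhesion receptor sialoadhesin, has no ITIM in its tail, and Cd47 is a ligand, so the name of inhibitory receptor does not describe either of them.

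On GRCm38 with the GENCODE M21 annotation, Siglecg (chromosome 7, 43408204 to 43418358, plus strand), Cd33 (43524216 to 43544428, minus strand) and Siglece (43651070 to 43660161, minus strand) stand within 252.0 kb of each other. Pirb (3711409 to 3720391, minus strand) and Cd22 (30865402 to 30880342, minus strand) are elsewhere on chromosome 7. Sirpa (129592835 to 129632228, plus strand) and Siglec1 (131069220 to 131086765, minus strand) are on chromosome 2, Lilrb4a (51490956 to 51496611, plus strand) is on chromosome 10 and Cd47 (49800533 to 49915010, plus strand) is on chromosome 16. Each is protein coding.

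RefSeq promoter windows on GRCm38.p6, from 250 bases before to 50 after the start, were found for 6 of the 9 genes. The windows of the clustered Siglec genes are shown because these neighbours differed in their values by library, that of Pirb because its values ordered the midkine libraries as those of Sirpa did, and that of Cd47 because it was the one gene with a negative difference. They are read 5′ to 3′ along the gene, and capitals mark GAGGAA, the core of many sites of the myeloid factor PU.1, or TTCCTC, the same word on the other strand. Their positions are chr7:43407989-43408288 (plus strand), chr7:43533122-43533421 (minus), chr7:43660112-43660411 (minus), chr7:3720333-3720632 (minus) and chr16:49855404-49855703 (plus). The windows of Cd33 and Cd47 lie inside the GENCODE gene spans given above, away from the outermost start of each gene.
Siglecg: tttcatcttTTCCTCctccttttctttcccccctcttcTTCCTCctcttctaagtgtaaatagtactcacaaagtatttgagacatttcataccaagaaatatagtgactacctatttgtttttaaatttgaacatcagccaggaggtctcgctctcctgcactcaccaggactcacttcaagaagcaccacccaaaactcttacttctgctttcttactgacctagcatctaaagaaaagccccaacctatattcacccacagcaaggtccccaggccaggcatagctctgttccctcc
Cd33: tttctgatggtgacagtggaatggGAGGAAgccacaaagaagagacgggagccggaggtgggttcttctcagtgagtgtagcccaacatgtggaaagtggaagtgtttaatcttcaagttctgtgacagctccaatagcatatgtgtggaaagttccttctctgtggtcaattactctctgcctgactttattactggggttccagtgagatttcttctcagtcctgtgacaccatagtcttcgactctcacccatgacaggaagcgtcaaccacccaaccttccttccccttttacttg
Siglece: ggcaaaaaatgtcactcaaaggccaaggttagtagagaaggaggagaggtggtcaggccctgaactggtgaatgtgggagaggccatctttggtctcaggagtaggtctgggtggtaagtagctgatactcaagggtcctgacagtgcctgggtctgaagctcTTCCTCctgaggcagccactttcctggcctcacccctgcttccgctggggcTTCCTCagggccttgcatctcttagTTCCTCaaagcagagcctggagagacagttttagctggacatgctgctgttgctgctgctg
Pirb: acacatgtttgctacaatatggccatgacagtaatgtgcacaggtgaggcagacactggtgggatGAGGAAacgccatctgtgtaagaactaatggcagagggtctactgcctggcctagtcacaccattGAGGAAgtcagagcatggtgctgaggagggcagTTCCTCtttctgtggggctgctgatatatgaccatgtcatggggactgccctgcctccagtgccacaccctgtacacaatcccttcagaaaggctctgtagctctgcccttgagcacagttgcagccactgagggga
Cd47: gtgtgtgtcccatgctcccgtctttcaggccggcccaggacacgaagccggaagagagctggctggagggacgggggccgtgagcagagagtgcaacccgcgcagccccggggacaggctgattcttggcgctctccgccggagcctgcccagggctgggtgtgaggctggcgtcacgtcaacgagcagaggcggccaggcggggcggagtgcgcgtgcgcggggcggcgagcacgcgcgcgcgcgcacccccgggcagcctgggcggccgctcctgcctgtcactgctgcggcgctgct

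GAGGAA occurred 3 times in the windows of Pirb and Siglece, 2 times in the Siglecg window, 1 time in that of Cd33 and 0 times in those of Cd22 and Cd47. Of 32851 promoter windows of this length, 28.3% held the word at least 1 time on either strand and 4.82% at least 2 times. A second Siglecg window, at a start further downstream, held 0 copies. The Cd47 window had 74.0% G and C and 35 CpG steps, against medians of 52.7% and 7, and 6.23% of windows had at least as many CpG steps as the richer of its windows, which had 36. In the Siglece, Siglecg and Pirb windows there was 1 CpG step each. These are matches of letters, and no binding was measured.

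Depth was 5985684 to 7233960 reads per library. One library, midkine 5, stood apart: mitochondrial ribosomal RNA was 0.377% of its reads, against 4.12 to 6.16% in the other 5. Results are therefore given with and without midkine 5. Libraries were made with a 3′ kit that yields a fragment near the end of each transcript, so levels of different genes were compared as normalized counts without scaling to length. In RNA of whole cultures, fewer cells of a type and less RNA per cell cannot be told apart.

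In the control cultures the 9 genes covered a wide range of levels. Cd47 was the most abundant, with 5200 ± 207 normalized counts (mean ± SD, n = 3 libraries), rank 112 of the 15443 symbols, and Sirpa was next with 2082 ± 225, rank 410. Lilrb4a followed with 1075 ± 202 and Pirb with 674 ± 92.2. The CD33-related Siglecs came lower, Cd33 at 317 ± 40.6 and Siglecg at 195 ± 20.8, and the B cell receptor Cd22 had 130 ± 24.1. Siglec1 with 33.1 ± 16.5 and Siglece with 21.2 ± 4.66, rank 10655, were the scarcest of the 9. Siglec1 and Siglece were the neighbours in this order whose control values overlapped, and all other neighbours were separated in every control library.

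**Figure D1:**
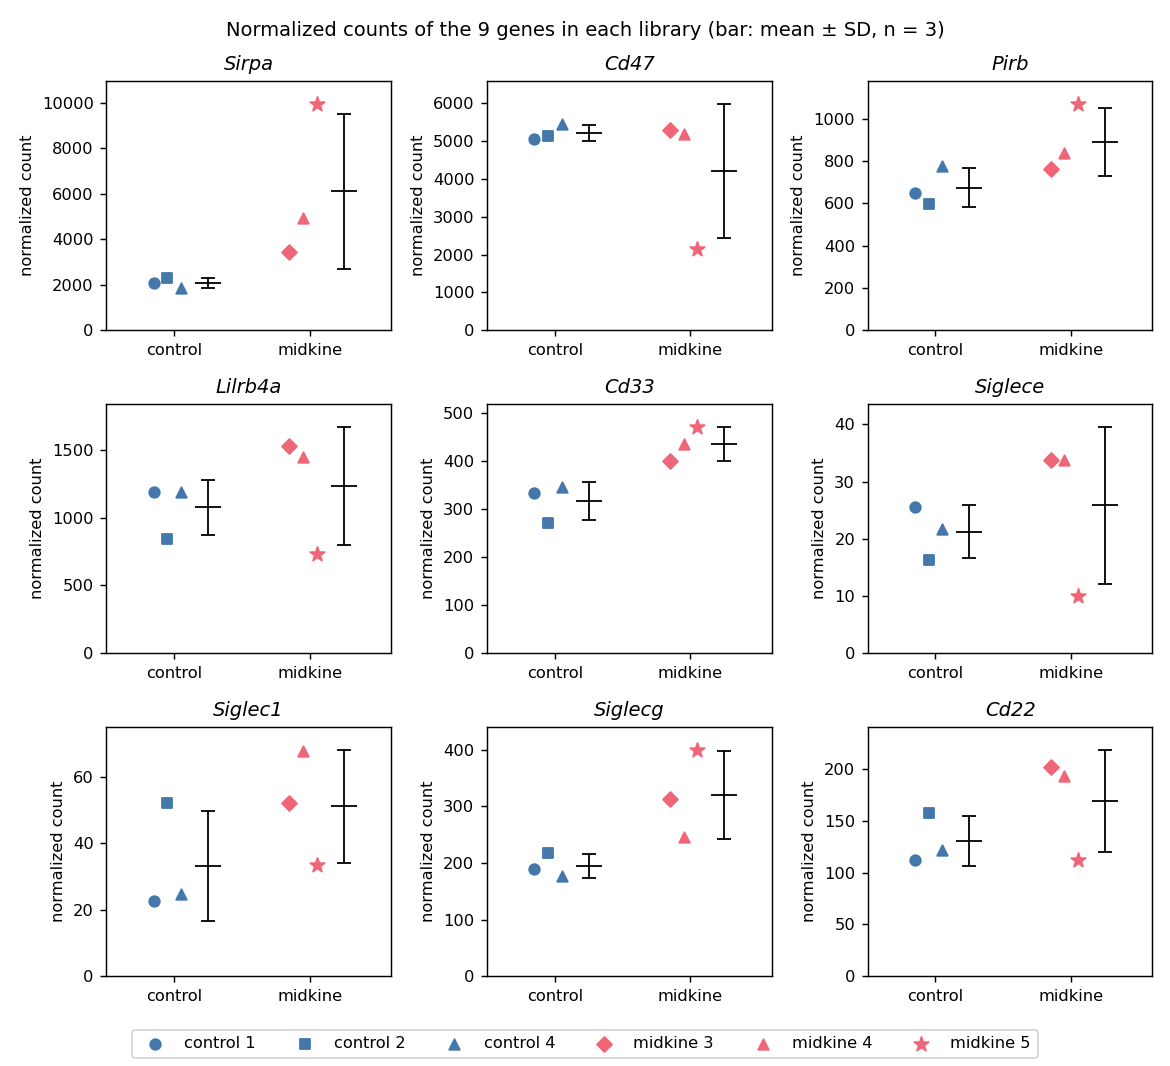
Normalized counts (vertical axis, from 0) of the 9 genes in the 3 control and 3 midkine libraries, 1 symbol per library, with mean ± SD to the right of each group. Sirpa, Siglecg and Cd33 are higher in every midkine library than in any control, while Cd47, Lilrb4a and Siglece are lowest in midkine 5.

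With all 6 libraries, 0 of the 9 genes passed the threshold of an adjusted p of 0.05 (limma, Benjamini-Hochberg over 13543 genes), and the share of all genes that passed was 0%. At an unadjusted p under 0.05 there were 3 of the 9, all higher (Sirpa, Siglecg and Cd33), beside 19.7% of all genes in either direction. edgeR on the reads also called 0 of the 9, and DESeq2 called Sirpa alone, beside 3.97% of genes called higher by DESeq2. The groups did not overlap for 3 of the 9, all higher with midkine, where 15.5% of all genes were higher and 15.3% lower without overlap. The median log2 fold change, midkine minus control on the log2(normalized count + 1) scale, was 0.39 over the 9 genes and −0.0040 over all genes tested.

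Without midkine 5, 6 of the 9 genes rose and 0 fell (limma, same threshold), namely Sirpa, Siglec1, Siglecg, Cd33, Cd22 and Lilrb4a. In that comparison of 2 midkine with 3 control libraries 9.92% of all genes rose and 8.52% fell. The median of the 9 was 0.51, against −0.0022 over all genes. Which values stood outside the controls differed by library. In midkine 3, 7 of the 9 lay above all 3 controls and 0 below, where 32.1% of all genes lay above and 32.4% below. Among the 7 was Siglec1, which was level with control 2 at 52.2 normalized counts. In midkine 4, 8 lay above and 0 below, beside 35.8% and 35.4%. In midkine 5, 4 lay above (Sirpa, Siglecg, Cd33 and Pirb) and 3 below (Siglece, Lilrb4a and Cd47), beside 41.8% and 41.1%.

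**Figure D2:**
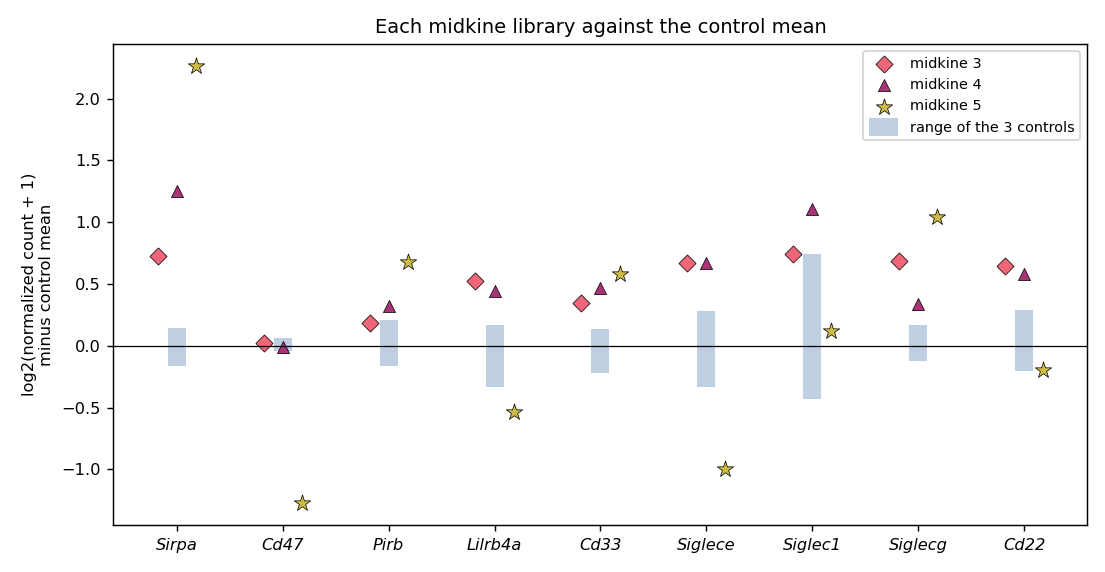
Difference of each midkine library from the control mean on the log2(normalized count + 1) scale for each gene, with the range of the 3 controls as a bar. In midkine 5, Sirpa stands highest at 2.26 and Cd47 lowest at −1.27.

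Sirpa, which encodes SIRPα, a receptor of macrophages and type 2 conventional dendritic cells, had 2102, 2296 and 1847 normalized counts in control 1, 2 and 4 and 3434, 4931 and 9965 in midkine 3, 4 and 5. Every midkine library was above every control, by 1.65, 2.37 and 4.79 times the control mean. Over the 6 libraries the log2 fold change was 1.41 ± 0.345 (SE, limma, adjusted p = 0.103). Leaving out midkine 5, it was 0.99 ± 0.132 (adjusted p = 8.00e-05). Of all genes tested, 5.03%, 1.62% and 0.620% lay as far above the control mean as Sirpa in midkine 3, 4 and 5. Over the 6 libraries Sirpa was the gene of the 9 with the largest log2 fold change. In midkine 3 alone, Siglec1 lay slightly farther above the control mean on the log2 scale (0.743 against 0.728). The coefficient of variation of Sirpa was 56.0% among the midkine libraries, against 10.8% among controls.

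Cd47 encodes the widely expressed membrane protein that SIRPα recognises, and that also binds integrins and thrombospondin-1. It had 5051, 5113 and 5436 normalized counts in control 1, 2 and 4 and 5280, 5167 and 2151 in midkine 3, 4 and 5. Midkine 3 and 4 were within the control range, and midkine 5 was at 0.414 times the control mean, and 8.75% of all genes tested lay as far or farther below the control mean in that library. Its log2 fold change was −0.42 ± 0.325 (limma, adjusted p = 0.485). It was 0.0071 ± 0.0980 without midkine 5 (adjusted p = 0.971), with a 95% interval from −0.20 to 0.21.

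The ratio of Sirpa to Cd47 was 0.416, 0.449 and 0.340 in the controls and 0.650, 0.954 and 4.63 in midkine 3, 4 and 5. Normalized counts of the receptor were thus below those of the ligand in 5 libraries and above them in midkine 5. In midkine 3 and 4 the higher ratio came with Cd47 within the control range, and in midkine 5 with both a higher Sirpa and a lower Cd47.

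**Figure D3:**
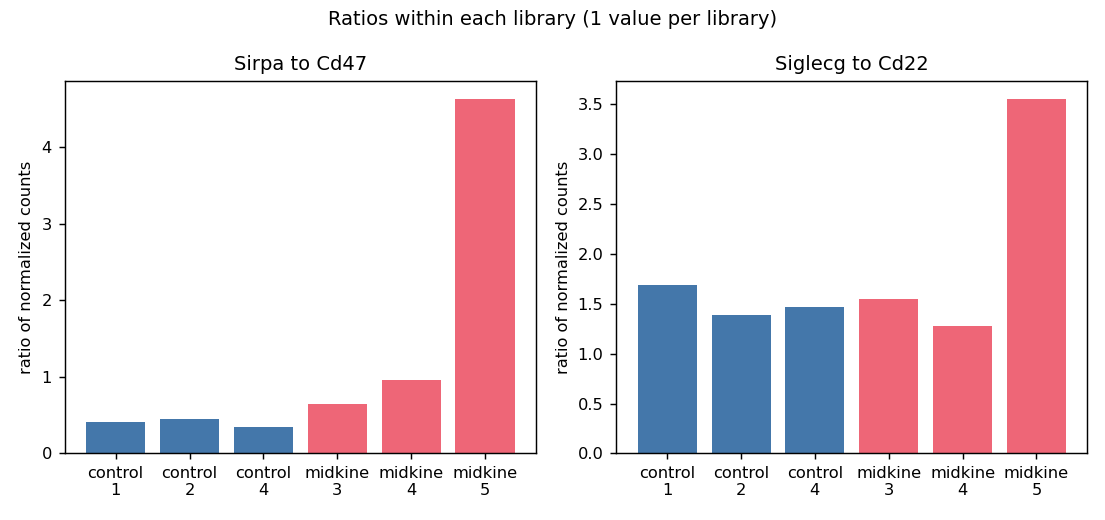
Ratio of the normalized counts of Sirpa to Cd47 and of Siglecg to Cd22 in each library, on axes from 0. Both ratios are highest in midkine 5, at 4.63 and 3.56. The Sirpa to Cd47 ratio is also above the controls in midkine 3 and 4.

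Pirb, the inhibitory member of the paired immunoglobulin-like receptors of mouse myeloid and B cells, had 648, 597 and 776 normalized counts in control 1, 2 and 4. In midkine 3, 4 and 5 it had 760, 838 and 1070. Midkine 3 was inside the control range and midkine 4 and 5 were above it. This gave a log2 fold change of 0.39 ± 0.181 (limma, adjusted p = 0.274), and 0.25 ± 0.117 without midkine 5 (adjusted p = 0.148), so Pirb did not pass either way.

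Lilrb4a encodes gp49B, an ITIM receptor of mast cells and myeloid cells. Its values were 1192, 842 and 1190 normalized counts in control 1, 2 and 4 and 1524, 1444 and 732 in midkine 3, 4 and 5. Midkine 3 and 4 were above all controls and midkine 5 was below all of them. Across the groups its log2 fold change was 0.14 ± 0.293 (limma, adjusted p = 0.799). Without midkine 5 it was 0.48 ± 0.130 (adjusted p = 0.0146). Lilrb4a reads carry a limit of identity: its last 300 transcript bases share 289 with its neighbour Lilr4b, and all 300 with Gm49339. That gene model, on the same strand, shares 1846 exon bases with Lilrb4a. The ratio of Lilrb4a to Lilr4b was 2.62, 2.01 and 2.20 in the controls and 1.92, 1.58 and 1.66 in the midkine libraries. Lilr4b itself had 455, 419 and 541 normalized counts in control 1, 2 and 4 and 793, 914 and 442 in midkine 3, 4 and 5, so midkine 3 and 4 were above all controls and midkine 5 was among them. How reads common to the pair were assigned is not given in the sources used here. An antisense gene model, Gm40645, has a row of its own and shares 131 exon bases with Lilrb4a on the other strand. The strand setting of the counting is likewise not given.

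Among the CD33-related Siglecs, Cd33, a receptor of myeloid cells, had 333, 271 and 347 normalized counts in control 1, 2 and 4 and 400, 436 and 472 in midkine 3, 4 and 5. The groups did not overlap and the midkine values were close together. On the log2 scale the fold change was 0.46 ± 0.162 (limma, adjusted p = 0.187), and 0.40 ± 0.126 without midkine 5 (adjusted p = 0.0319), so the size changed little while the call did.

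Siglecg, an inhibitory Siglec best known from B-1 cells and also made by dendritic cells, had 189, 218 and 178 normalized counts in control 1, 2 and 4. Midkine 3, 4 and 5 had 312, 246 and 400, each above all controls. For Siglecg the log2 fold change was 0.69 ± 0.207 (limma, adjusted p = 0.148) and 0.51 ± 0.141 without midkine 5 (adjusted p = 0.0165).

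Siglece, an inhibitory Siglec of neutrophils, monocytes and macrophages, was scarce. It had 25, 16 and 22 reads in control 1, 2 and 4, or 25.6, 16.4 and 21.7 normalized counts, and 33.8, 33.8 and 9.98 normalized counts in midkine 3, 4 and 5. Midkine 3 and 4 lay above all controls and midkine 5 below them. The exact Poisson 95% interval, which covers counting error only, was 4.98 to 17.9 normalized counts for midkine 5, apart from 23.6 to 47.1 for midkine 3 and 23.1 to 47.7 for midkine 4. The intervals of the controls, 16.6 to 37.9, 9.35 to 26.6 and 13.6 to 32.9 in control 1, 2 and 4, overlapped with those of the midkine libraries on either side. The log2 fold change was 0.11 ± 0.470 (limma, adjusted p = 0.905) and 0.67 ± 0.283 without midkine 5 (adjusted p = 0.111).

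Siglec1, known from tissue macrophages and as an interferon-induced gene, had 22.6, 52.2 and 24.7 normalized counts in control 1, 2 and 4 and 52.2, 67.6 and 33.6 in midkine 3, 4 and 5. Control 2 was level with midkine 3 and above midkine 5, and the other controls were below all midkine libraries. Siglec1 had a log2 fold change of 0.66 ± 0.383 (limma, adjusted p = 0.366) and 0.93 ± 0.301 without midkine 5 (adjusted p = 0.0392). It was 1.03 without control 2 with all midkine libraries kept (adjusted p = 0.352).

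Cd22, the Siglec that restrains the B cell receptor, had 112, 157 and 121 normalized counts in control 1, 2 and 4 and 202, 193 and 113 in midkine 3, 4 and 5. Midkine 3 and 4 were above all controls, and midkine 5 was among them. The log2 fold change was 0.34 ± 0.261 (limma, adjusted p = 0.474) and 0.61 ± 0.157 without midkine 5 (adjusted p = 0.0109). An antisense gene model, Gm29439, shares 479 exon bases with Cd22 on the other strand, and the strand setting of the counting is not given in the sources used here. The ratio of Siglecg to Cd22 was 1.38 to 1.69 in the controls, 1.55 and 1.27 in midkine 3 and 4 and 3.56 in midkine 5.

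**Figure D4:**
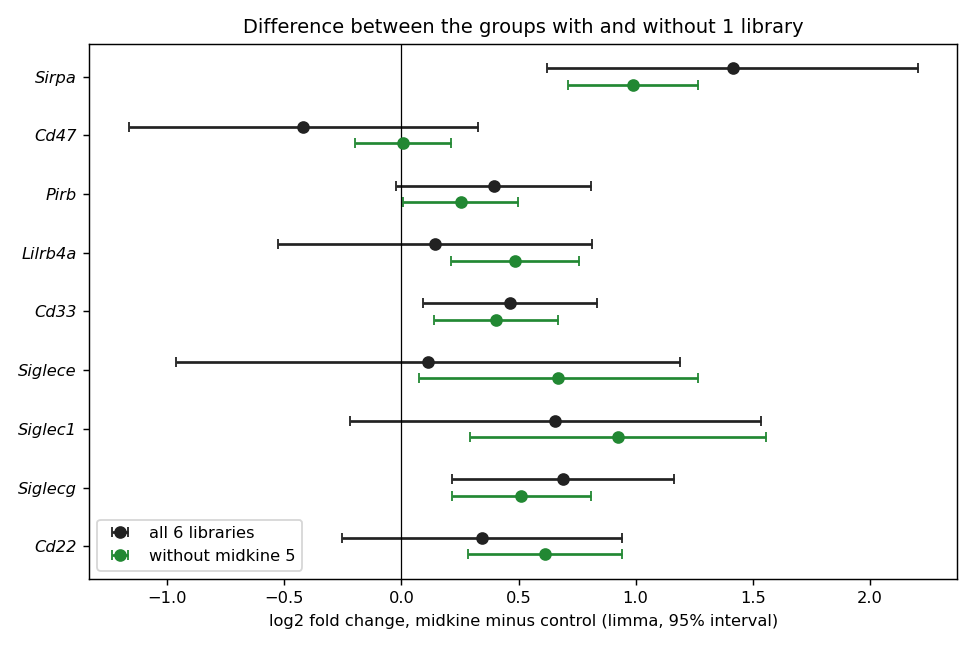
Log2 fold change of each gene, midkine minus control, with its 95% interval from limma, for all 6 libraries and without midkine 5. Intervals are narrower without midkine 5, where Cd47 lies at 0.0071 and Sirpa at 0.99.

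Markers of the cell types that could carry these receptors are given as sums, some of which separated the groups and some of which did not, and their part in the results was not tested. Summed over 8 B cell markers, normalized counts were 1340 to 1877 in the controls, 2962 and 2599 in midkine 3 and 4 and 1404 in midkine 5, so midkine 3 was highest and midkine 5 among the controls. Pax5, a B cell transcription factor, averaged 116 ± 33.7 without and 246 ± 65.1 with midkine, and Vpreb1, a chain of the pre-B cell receptor, had 22.6 ± 0.912 and 39.8 ± 7.79. Unlike the sum, both were above all controls in midkine 5, Pax5 at 171 and Vpreb1 at 47.2. For 10 macrophage and monocyte markers the sum was 17281 to 18521 in the controls and 22391, 23277 and 21350 in midkine 3, 4 and 5, without overlap. The 8 conventional dendritic cell markers summed to 2036 to 2352 in the controls, 1407 and 1466 in midkine 3 and 4 and 2137 in midkine 5. Unlike this sum, 5 of the 8 were lower with midkine without overlap and 0 higher, where 15.3% of all genes were lower. Kmo had 343 normalized counts in midkine 5, against 602 to 727 in the controls, and Zbtb46 had 86.2, against 139 to 171. Neutrophil markers (8) were at 120270 to 134340 in controls and 171680 to 184230 with midkine, and 6 plasmacytoid dendritic cell markers at 9522 to 10376 and 7536 to 8079. The 8 eosinophil, basophil and mast cell markers gave 1001 to 1227 and 1773 to 2741. T and NK cell markers, of which 4 of 7 had a row, summed to 46.0 to 62.1 in controls and 41.8 to 81.2 with midkine. Erythroid markers, 4 of 7, summed to 45.1 to 77.9 and 110.2 to 176. No marker passed with all 6 libraries. Without midkine 5, 7 of 8 B cell markers rose and 0 fell, as did 6 and 2 of 10 for macrophages and monocytes, 0 and 5 of 8 for conventional dendritic cells, 0 and 2 of 6 for plasmacytoid dendritic cells, and 4 and 0 of 8 for neutrophils. The counts were 7 and 0 of 8 for eosinophils, basophils and mast cells, 0 and 0 of 3 tested for T and NK cells, and 1 and 0 of 4 for erythroid cells.

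Other genes of the Siglec, Sirp and Lilr families went both ways. Of 20 listed, 10 had a row and 8 were tested, and 0 passed with all 6 libraries. Without midkine 5, 2 rose and 1 fell. Siglech, a Siglec of plasmacytoid dendritic cells that signals through an activating adaptor, had 404 ± 59.7 normalized counts without and 234 ± 51.0 with midkine, and fell without midkine 5 (limma, adjusted p = 0.00333). Mag, the myelin Siglec, was scarce, with 20.2 ± 3.36 and 43.9 ± 10.2, and rose with Lilr4b in that comparison. Sirpb1c, a relative of Sirpa, had 16.5 ± 3.79 and 26.4 ± 2.75. Their median log2 fold change was 0.43 with all libraries, against −0.0040 over all genes.

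Among 15 other receptors with inhibitory tails, 0 passed with all 6 libraries, and 9 rose and 1 fell without midkine 5. Cd300lf, an inhibitory CD300 receptor, had 593, 515 and 611 normalized counts in control 1, 2 and 4 and 1048, 1058 and 1037 in midkine 3, 4 and 5 (log2 fold change 0.87 ± 0.139, limma, adjusted p = 0.0757). Its midkine values were close together, and midkine 5 did not stand apart. Fcgr2b, the inhibitory Fcγ receptor, averaged 216 ± 30.8 in the controls and 370 ± 47.9 with midkine. Vsir, which encodes the checkpoint protein VISTA, had 1549 ± 110 and 2229 ± 264. Btla, an inhibitory receptor of lymphocytes and dendritic cells, was lower, with 194 ± 28.2 and 114 ± 10.4. The others that rose without midkine 5 were Cd300a, Lair1, Clec4a2, Clec12a, Cd72 and Cd200r1. The list median was 0.38 with all 6.

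Of 18 effectors that act below inhibitory tails, 0 passed with all 6 libraries, and 4 rose and 0 fell without midkine 5, with a list median of 0.21 over all 6 libraries. Ptpn11, the phosphatase SHP-2, averaged 1163 ± 61.9 normalized counts in the controls and 892 ± 156 with midkine, and was lower without overlap. Inpp5d, the lipid phosphatase SHIP-1, had 641, 632 and 642 in control 1, 2 and 4 and 730, 804 and 1538 in midkine 3, 4 and 5. Its groups did not overlap, and midkine 5 was far above midkine 3 and 4. The adaptors Dok2 (192 ± 22.8 and 323 ± 77.9) and Skap2 (1838 ± 174 and 2556 ± 440.0) were also without overlap. Both rose without midkine 5, as did the adaptor Grb2 and the kinase Ptk2b, named here after their values were seen. In midkine 5, Grb2 had 2505 and Ptk2b 346 normalized counts, below all controls (2664 to 2933 and 587 to 649).

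Of 9 adaptors and kinases of the opposing ITAM pathway, 0 passed with all 6 libraries, and 2 rose and 0 fell without midkine 5 (list median 0.22 with all 6). Tyrobp, the adaptor DAP12 that pairs with activating receptors, averaged 2861 ± 195 normalized counts in the controls and 3813 ± 279 with midkine. Lat2, a membrane adaptor, had 2015 ± 94.8 and 2668 ± 680.4, and Hcst, the adaptor DAP10, had 265 ± 8.31 and 343 ± 71.2. Card9, a signalling scaffold below C-type lectin receptors, was scarce at 18.2 ± 1.12 and 12.3 ± 5.80. The pair that rose without midkine 5 was Tyrobp and, named after its values were seen, Fcer1g, the adaptor of Fc receptors and of activating PIR-A. Fcer1g had 3073, 3098 and 2689 in control 1, 2 and 4 and 3997, 4379 and 2383 in midkine 3, 4 and 5, so it was below all controls in midkine 5 while Tyrobp was above them.

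For ligands and partners of the receptors, 0 of 14 passed with all 6 libraries, and 8 rose and 1 fell without midkine 5 (list median 0.46 with all 6). H2-D1, a class I MHC gene whose protein class is bound by PIR-B, had 4263, 4104 and 4037 normalized counts in control 1, 2 and 4 and 5515, 7056 and 6597 in midkine 3, 4 and 5, without overlap. Lrp1, the receptor through which calreticulin prompts uptake against the CD47 signal, had 720 ± 170 and 1295 ± 205. Fn1, which encodes fibronectin, had 323 ± 50.7 and 550 ± 44.4. Itgb2, the shared chain of the leukocyte β2 integrins, had 688 ± 39.4 and 1085 ± 273. Spn, which encodes the heavily sialylated protein CD43 and was named after its values were seen, was the one that fell without midkine 5. It had 1390, 1401 and 1350 in control 1, 2 and 4 and 1137, 875 and 1804 in midkine 3, 4 and 5, where midkine 5 was above all controls. B2m, the light chain of MHC class I, had 8267, 7758 and 8033 in the controls and 11255, 13693 and 6652 in midkine 3, 4 and 5. Thbs1, the thrombospondin that CD47 binds, had 1319, 1547 and 1415 in the controls and 2220, 2180 and 1345 in the midkine libraries. Both B2m and Thbs1 rose without midkine 5, and in midkine 5 B2m was below all controls and Thbs1 among them.

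Of 20 genes that make or remove sialic acid, the sugar that Siglecs bind, 0 passed with all 6 libraries, and 2 rose and 1 fell without midkine 5. The median was 0.061. St6gal1, the sialyltransferase that makes the α2,6-linked ligands preferred by CD22, had 73.8, 83.9 and 67.1 normalized counts in control 1, 2 and 4 and 138, 169 and 189 in midkine 3, 4 and 5 (log2 fold change 1.13 ± 0.191, limma, adjusted p = 0.0788). Its groups were well separated, and it rose without midkine 5 (log2 fold change 1.02, adjusted p = 0.000462). Neu1, the lysosomal sialidase, had 409 ± 37.5 and 876 ± 488, and also rose without midkine 5. St8sia4, a polysialyltransferase, had 1324 ± 78.4 and 992 ± 86.3 and fell in that comparison, and St3gal4, which adds α2,3-linked sialic acid, had 92.3 ± 7.20 and 132 ± 42.6.

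**Figure D5:**
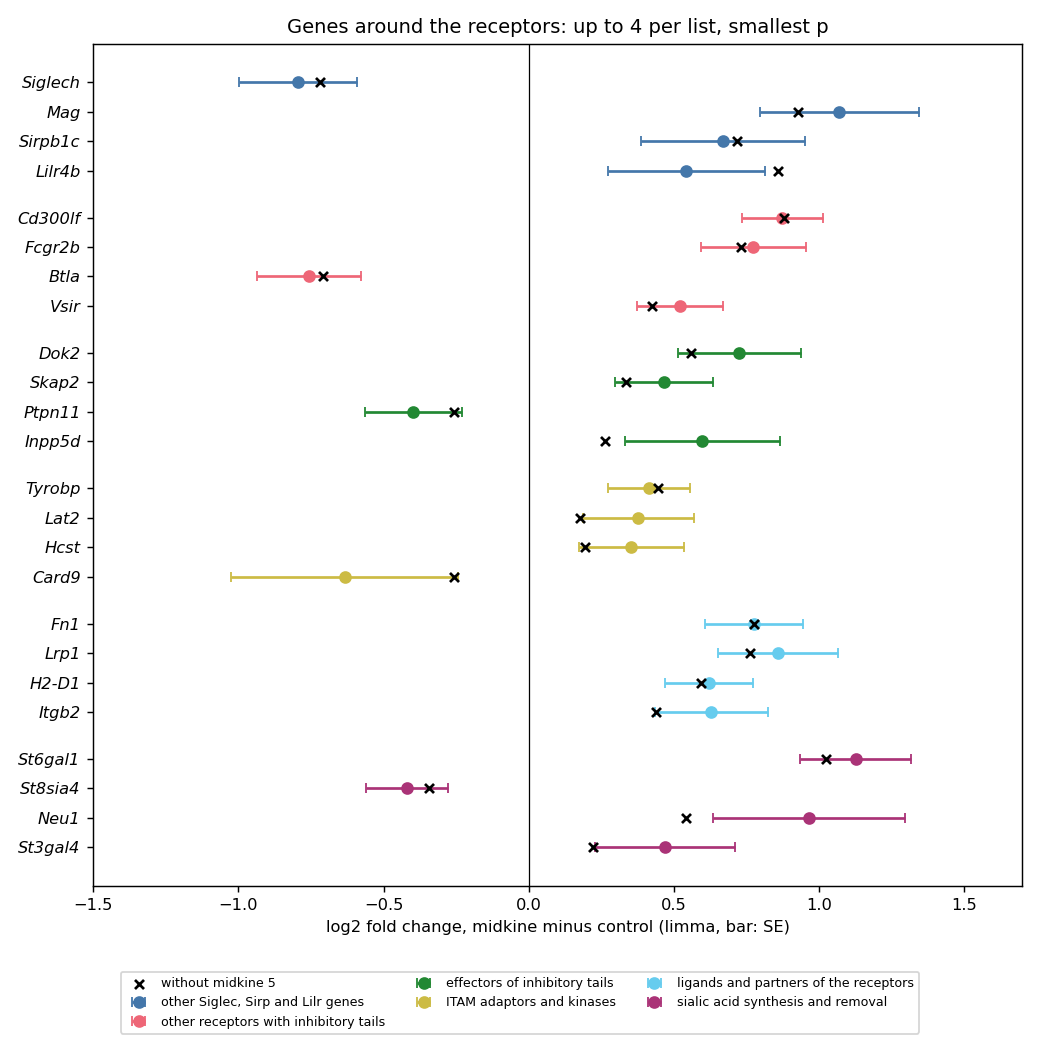
Log2 fold change, midkine minus control, with its SE from limma for up to 4 genes of each of 6 lists with the smallest p, and the value without midkine 5 as a cross. Inpp5d, Neu1 and Card9 shift most towards 0 without midkine 5, and Siglech, Btla, St8sia4, Ptpn11 and Card9 are the genes below 0.

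The genes whose log2 values followed a member most closely were found by Pearson correlation over the 6 libraries, as a description in which midkine 5 weighs heavily. For Sirpa they were Uckl1, Peli2 and Cmtm3 (r = 0.9995, 0.9987 and 0.9981). Cd47 was followed by Atp11b, Gm340 and Zeb2 (0.9991, 0.9981 and 0.9981), and Lilrb4a by Psma6, Gna13 and Prom1 (0.9896, 0.9891 and 0.9861). For Pirb they were Rce1, Sephs2 and Zswim8 (0.9946, 0.9936 and 0.9934), and for Cd33 Arf6, Tlr1 and Mfsd14b (0.9925, 0.9924 and 0.9915). Siglecg was followed by Slc24a5, Slc39a11 and Tm2d3 (0.9932, 0.9887 and 0.9882) and Cd22 by Sort1, Cpm and Arhgap25 (0.9981, 0.996 and 0.9931). For Siglec1 they were Rell1, Ube2h and Bsdc1 (0.9947, 0.9887 and 0.9835) and for Siglece S100a11, Snx4 and Snx12 (0.9945, 0.993 and 0.991). No gene was named for 2 members.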

How the data were processed

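The deposited values are counts per gene symbol that the authors divided by a size factor per library, so each value is a normalized signal. Tools listed, without their roles, by the submitters' processing notes include HTSeq, TopHat2 2.0.10, Bowtie 1.0.0 and DESeq2, with the build GRCm38 (mm10). Whole reads were recovered for 100% of values in each library (tolerance 0.01 reads), with 6 libraries used and 0 other columns of samples. Of the symbols, 15353 matched a single gene of GENCODE M21, all 9 members among them.

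The main test was limma 3.58.1 (R 4.3.3, trend, two-sided) on log2(normalized count + 1), midkine minus control, for the 13543 genes with a mean of at least 5 over the 6 libraries. The same genes were used when a library was left out. edgeR 4.0.16 (quasi-likelihood, TMM) and DESeq2 1.42.0 were run on the recovered reads, and the scripts were tested on simulated data. DESeq2 gave 3894 genes no adjusted p. No replicate block was fitted, since the groups share a single replicate number.

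Members and lists were chosen with earlier results of these data known. Named beside the members are up to 4 genes of each pathway list and up to 2 of a cell type list, by smallest unadjusted p, and the 3 genes of mean at least 20 most correlated with a member. Further list genes were named after their values were seen: those said to be so, Thbs1, B2m and the inhibitory receptors listed without values.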

Additional observations from a re-analysis of the deposited data

How the results depend on the processing

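No alternative with all 6 libraries and equal weights called a member, apart from DESeq2, which called Sirpa (1.55, adjusted p = 0.00170; 1 member). Genes called over the whole table were 0 in the main fit, 10 with a pseudocount of 5, 9 with no filter, 16 with quantile normalization, 12 with equal totals, 10 with edgeR and 684 with DESeq2. With array weights 5076 genes and 7 members were called: Sirpa 1.20, Siglec1 1.18, Siglecg 0.42, Cd33 0.42, Cd22 0.64, Pirb 0.31 and Lilrb4a 0.38.

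Leaving out 1 library at a time, genes called ranged from 0 to 2497, members called from 0 to 6 and members without overlap from 3 to 7, the highest in each case without midkine 5. No share of all genes is given here for the 7, and 2 midkine libraries separate from 3 controls more easily than 3 do. Siglec1 is among the 7 although its midkine 3 value was level with control 2, at 52.2 normalized counts. By library left out, log2 fold changes ranged from 0.99 to 1.76 for Sirpa, 0.43 to 1.03 for Siglec1, 0.51 to 0.86 for Siglecg, 0.35 to 0.53 for Cd33, 0.19 to 0.61 for Cd22, 0.25 to 0.50 for Pirb and −0.64 to 0.0071 for Cd47. Siglece ranged from −0.16 to 0.67 and Lilrb4a from −0.046 to 0.48. The sign of both turned without control 2 (−0.053 and −0.023), midkine 3 (−0.164 and −0.046) or midkine 4 (−0.163 and −0.0065), and that of Cd47 without midkine 5.

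edgeR without midkine 5, chosen after seeing the data, called 2508 genes and 6 members: Sirpa 1.01, Siglec1 0.86, Siglecg 0.53, Cd33 0.40, Cd22 0.61 and Lilrb4a 0.47, with Cd47 at 0.014. The cause of these shifts was not tested. With 3 libraries a group, an exact two-sided permutation test cannot go below p = 0.10, and for Siglece and Siglec1 the reads limit precision.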
